A study of Mus musculus with 12 samples.

Results

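The comparison described here sets M1-stimulated against M2-stimulated bone marrow-derived macrophages (BMDMs) of WT mice directly, with the untreated WT cells (Con) as the reference for the direction of each response. Its members are the 4 arrays labelled as WT M1 or WT M2, of 12 arrays in the series, and the 2 WT Con arrays are read beside them. BMDMs are obtained by culturing bone marrow with the growth factor M-CSF, here for 7 days, and came from C57BL/6 mice aged 8 weeks. M1 cells received LPS (5 ng per ml) with IFNγ (10 ng per ml), and M2 cells received IL-4 (10 ng per ml), both for 6 h, while Con cells were left unstimulated. There were 2 cultures, male in culture 1 and female in culture 2, so each group is 2 arrays, and the culture and the sex of the mouse cannot be told apart. The other 6 arrays hold the same stimulations of KpCKO cells (*Keap1* flox/flox::*LysM*-Cre, a deletion driven in myeloid cells), 1 mouse of each genotype in each culture. They entered the fit, to share 1 estimate of the spread, and are described once at the end.

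LPS is sensed by Toll-like receptor 4, which signals through NF-κB and through interferon regulatory factors, and the type I interferon made in response acts on the same cells. IFNγ acts through a palindromic promoter element called GAS, and type I interferon through an element called the ISRE. IL-4 acts through STAT6, which prefers a palindrome with a wider spacer. Macrophages given LPS and IFNγ are known for killing microbes and for making inflammatory cytokines and nitric oxide, and those given IL-4 for tissue repair and the response to helminths, with arginase in place of nitric oxide synthase.

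The promoters of 6 genes that carry the main patterns are shown first, since the elements named above lie in such sequences. They are RefSeq promoters of build GRCm38.p6, each running from 250 bases before to 50 bases after a start site and written along the strand of the gene. Capitals mark, on either strand, the ISRE letters GAAANNGAAA, the GAS letters TTCNNNGAA, the NF-κB letters GGGNNTTTCC or the STAT6 letters TTCNNNNGAA, as named in each line. The shared-response gene *Socs1* has 2 ISRE matches that overlap each other.
Ifit1, opposed (up in M1, down in M2), chr19:34640639-34640938, plus strand, ISRE: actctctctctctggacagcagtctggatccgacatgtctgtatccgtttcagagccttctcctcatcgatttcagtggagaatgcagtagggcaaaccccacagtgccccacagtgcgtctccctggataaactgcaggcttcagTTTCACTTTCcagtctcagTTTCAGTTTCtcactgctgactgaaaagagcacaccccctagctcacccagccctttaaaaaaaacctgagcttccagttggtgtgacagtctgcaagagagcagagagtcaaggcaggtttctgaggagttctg
Gbp5, up in M1 alone, chr3:142496684-142496983, plus strand, GAS, ISRE and NF-κB: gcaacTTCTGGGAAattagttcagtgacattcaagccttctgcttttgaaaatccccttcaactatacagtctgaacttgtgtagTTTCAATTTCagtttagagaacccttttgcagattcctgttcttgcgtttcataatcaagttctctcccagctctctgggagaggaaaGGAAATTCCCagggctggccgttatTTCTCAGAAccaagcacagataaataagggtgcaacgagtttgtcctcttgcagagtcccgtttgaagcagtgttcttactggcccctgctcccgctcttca
Retnla, higher in M2, chr16:48842359-48842658, plus strand, STAT6: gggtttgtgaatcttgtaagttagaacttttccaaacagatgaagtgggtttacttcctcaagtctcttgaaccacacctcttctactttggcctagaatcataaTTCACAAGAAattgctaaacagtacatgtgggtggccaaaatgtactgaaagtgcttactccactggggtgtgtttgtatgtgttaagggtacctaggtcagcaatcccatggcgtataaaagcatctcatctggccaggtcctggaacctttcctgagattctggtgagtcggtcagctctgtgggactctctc
Tmem26, opposed (down in M1, up in M2), chr10:68723496-68723795, plus strand, STAT6: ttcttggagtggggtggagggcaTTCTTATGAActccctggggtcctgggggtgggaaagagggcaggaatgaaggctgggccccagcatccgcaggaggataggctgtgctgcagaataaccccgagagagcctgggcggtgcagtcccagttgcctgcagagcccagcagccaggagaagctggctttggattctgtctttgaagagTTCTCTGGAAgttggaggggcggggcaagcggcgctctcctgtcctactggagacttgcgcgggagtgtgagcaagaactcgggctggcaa
Socs1, up in both, chr16:10785487-10785786, minus strand, ISRE: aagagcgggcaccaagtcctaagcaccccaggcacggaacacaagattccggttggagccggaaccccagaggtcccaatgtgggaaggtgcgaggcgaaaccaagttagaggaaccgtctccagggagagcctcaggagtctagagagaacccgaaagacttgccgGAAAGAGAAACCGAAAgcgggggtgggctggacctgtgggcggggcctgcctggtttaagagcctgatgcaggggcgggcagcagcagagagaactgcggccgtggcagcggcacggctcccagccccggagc
Pdcd1lg2, up in both, chr19:29410669-29410968, plus strand, STAT6: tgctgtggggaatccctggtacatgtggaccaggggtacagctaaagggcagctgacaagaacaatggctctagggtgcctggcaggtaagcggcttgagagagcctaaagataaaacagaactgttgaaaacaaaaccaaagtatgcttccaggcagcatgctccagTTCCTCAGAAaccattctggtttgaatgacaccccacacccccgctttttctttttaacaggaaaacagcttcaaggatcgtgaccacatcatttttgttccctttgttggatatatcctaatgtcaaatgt

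The matches lay at −104 and −85 bases from the start site in *Ifit1*, at −245 and −52 (GAS), −165 (ISRE) and −77 (NF-κB) in *Gbp5*, at −145 in *Retnla*, at −227 and −41 in *Tmem26*, at −83 and −77 in *Socs1* and at −82 in *Pdcd1lg2*. Over all genes tested here with a promoter in the table, 3.08% of 14751 promoters held the ISRE letters, 7.21% the GAS letters, 5.63% the STAT6 letters and 1.65% the NF-κB letters. Among genes that rose in M1 and fell in M2, 15 of 76 promoters (19.7%) held the ISRE letters. The same letters stood in 5.49% of 983 promoters of genes that rose in M1 alone, in 4.58% of 153 promoters of genes that rose in both, and in 2.27% of 88 promoters of genes that fell in M1 and rose in M2. The STAT6 letters stood in 7 of 48 promoters (14.6%) of genes that rose in M2 alone, in 8.5% of those that rose in both, in 6.82% of those that fell in M1 and rose in M2, and in 9.21% of those that rose in M1 and fell in M2. The GAS letters stood in 8 of 48 promoters (16.7%) of genes that rose in M2 alone and in 7.32% of those that rose in M1 alone. For the NF-κB letters the shares were 2 of 48 (4.17%) and 2.34% in the same classes. They were 1.32% among genes that rose in M1 and fell in M2. These shares describe letters in a window of 300 bases and were not tested, and the promoters of a gene can overlap. The promoters shown each hold a match, unlike most promoters of the genes tested.

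All levels below are log2 intensities relative to the 75th percentile of their array, so a level of 0 is the 75th percentile, and a difference of 1 is a factor of 2. The 75th percentile of the signal itself was 757.1 and 547.7 on the M1 arrays, against 1165.6 and 1007.1 on the M2 arrays and 1143.4 and 1023.0 on the Con arrays, and the share of spots well above background was 59.82% and 66.51% in M1, 66.8% and 67.56% in M2, and 70.94% and 68.06% in Con. Probes at background therefore stood at a median of −7.43 and −7.95 on the M1 arrays and of −8.37 and −8.66 on the M2 arrays, and where neither array of a group held a gene well above background, its difference is given as a fold of at least the stated size. The arrays of a stimulus shared 1 slide, and the M2 slide was scanned on another day than the M1 and Con slides. Stimulus and slide therefore cannot be told apart in any result here. Neither can stimulus and day of scanning, for M2 against M1 and for M2 against Con. In RNA of whole cultures, fewer cells of a kind and less RNA per cell cannot be told apart either. Of 13 macrophage markers, 13 were well above background on all 6 WT arrays, with a summed log2 level of 10.65 and 10.89 in M1, 10.18 and 10.28 in M2, and 10.31 and 10.39 in Con. Of 13 neutrophil markers, 9 were well above background on all 6 arrays and 1, *Elane*, was at background on all 6, with a summed level between 3.65 and 4.7, and 6 of 8 fibroblast markers were above background on all 6, with a summed level between 5.05 and 5.39. Of 8 T cell markers, 2 were well above background on all 6 arrays and 2, *Cd3d* and *Cd8a*, were at background on all 6. Their summed level was 1.37 and 1.74 in M1, 1.1 and 0.62 in M2, and 1.19 and 0.97 in Con. Of 6 NK cell markers, 1 was above background on all 6, and *Gzma*, *Prf1* and *Eomes* were at background on all 6. Of 7 dendritic cell markers, 4 were above background on all 6. Their summed level was 1.88 and 2.9 in M1, 0.94 and 1.13 in M2, and 1.53 and 1.87 in Con. The summed level of the 7 B cell markers was −2.22 and −2.27 in M1, −0.85 and −0.53 in M2, and −0.84 and −0.7 in Con, and the summed level of the 6 NK cell markers was −2.22 and −2.7 in M1, −4.26 and −4.65 in M2, and −4.02 and −4.27 in Con.

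M1 and M2 cells differed in most of the genes tested. Of 22347 genes, 7531 (33.7%) were higher in M1 and 6555 (29.3%) were higher in M2 (limma, adjusted p under 0.05), and the median size of these differences was 1.14, with a median standard error of 0.18 over all genes. Each counted difference had the same sign in both cultures for 14037 of the 14086 genes (99.7%). With more than 2-fold in each culture as a further requirement, 3493 genes (15.6%) were higher in M1 and 3198 (14.3%) were higher in M2. The genes higher in M2 were 46.5% of those called, and after quantile normalization 55.6%, with 8006 higher in M2 and 6399 higher in M1, so the balance of the directions depends on the scaling. Relative to Con, M1 stimulation raised 7718 genes (34.5%) and lowered 6409 (28.7%), and M2 stimulation raised 1931 (8.64%) and lowered 1835 (8.21%). Both comparisons use the same Con arrays. Each count of list members below is to be read against these percentages.

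Among the genes with the largest differences, the chemokine *Cxcl9*, a ligand of CXCR3, stood at 8.99 and 9.31 on the M1 arrays, −5.14 and −5.48 on the M2 arrays and −5.07 and −3.71 on the Con arrays. The M1 arrays were far above the other 4, and M1 exceeded M2 by 14.46 ± 0.35 (limma standard error, n = 2 cultures, adjusted p = 2.16e-06). Next came *Il6* (12.75), *Cxcl10* (12.48), the GTPase gene *Gbp4* (11.68), the nucleic acid sensor family member *Ifi205* (11.66), the antiviral gene *Oasl1* (11.6), the GTPase gene *Iigp1* and the lymphocyte activation antigen gene *Cd69* (10.6). *Gbp6*, at 4.79 and 4.53 in M1, and the interferon gene *Ifnb1*, at 2.15 and 3.76 in M1, were not well above background in M2. The former was at least 2490-fold higher in M1 and the latter at least 810-fold.

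In the other direction, *Retnla*, which codes for the secreted protein RELMα, stood at 5.18 and 6.11 on the M2 arrays, −7.46 and −8.08 on the M1 arrays and −7.34 and −8.85 on the Con arrays. It was measured well above background in M2 alone, where it was at least 2780-fold higher than in M1 (adjusted p = 7.87e-05). Arginase 1, *Arg1*, stood at 4.01 and 4.39 in M2, −6.46 and −6.18 in M1 and −6.68 and −5.69 in Con, and was at least 1020-fold higher in M2 than in M1 (adjusted p = 2.71e-06). *Gpr183*, a receptor for oxysterols, differed by −7.2 ± 0.13, from 3.27 and 3.49 in M2 to −4.0 and −3.64 in M1, with Con at 2.57 and 2.61. Against Con it fell in M1 (−6.41, adjusted p = 1.79e-06) and rose in M2 (0.79, adjusted p = 0.00969). Further genes higher in M2 were at background on both M1 arrays: *Tmem26* (at least 122-fold), the homeobox gene *Msx3* (at least 50.6-fold), the Nogo receptor homologue *Rtn4rl1* (at least 41.6-fold), *Zfyve28* (at least 34.9-fold) and the sodium channel gene *Scn3a* (at least 34.7-fold). Of these, *Zfyve28* fell against Con in M2 as well as in M1.

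The classical activation markers were all higher in M1. Of 19 listed genes 17 were tested, 17 were higher in M1 and 0 in M2, with a median difference of 7.27 against 0.09 over all genes tested. *Nos2*, the inducible nitric oxide synthase, stood at 0.44 and 0.41 in M1 and at background in the other groups, −8.36 on both M2 arrays and −8.54 and −8.53 on the Con arrays, and was at least 140-fold higher in M1 than in M2 (adjusted p = 1.89e-06). *Il6* stood at 6.66 and 7.9 in M1 against −6.12 and −4.82 in M2. *Tnf* stood at 8.12 and 8.2 in M1 against 0.18 and 1.59 in M2, and *Il1b* at 7.77 and 8.88 against 0.35 and 2.4. For each of these cytokines both M1 arrays exceeded both M2 arrays and both Con arrays. The largest differences after *Cxcl9*, *Il6* and *Cxcl10* were those of the formyl peptide receptor *Fpr2* (10.3), the itaconate synthase *Acod1* (9.65), *Cd38* (at least 377-fold), *Nos2* and *Ptgs2* (7.59). Others were smaller: *Il12a* 6.35, the lipid receptor gene *Gpr18* 6.14, the tryptophan-degrading enzyme gene *Ido1* 5.59, *Irf1* 3.66, the costimulatory ligands *Cd86* 2.8 and *Cd80* 2.42, and *Irf5* 0.88. The call for *Irf5* did not hold without the first M1 array (0.73, adjusted p = 0.0535) or without the first M2 array (0.62, adjusted p = 0.0632).

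The alternative activation markers leaned the other way, with exceptions. Of 26 listed genes 24 were tested, 21 were higher in M2, 2 in M1 and 1 was not called, with a median of −3.55. After *Retnla* and *Arg1*, the adhesion gene *Cdh1* (E-cadherin) stood at 0.47 and 0.71 in M2 and at background in M1 and Con, at least 83.4-fold higher in M2. The transcription factor gene *Irf4* stood at 1.62 and 1.63 in M2 and at −4.37 and −7.94 in M1, with 1 M1 array above background. Below these came the chitinase-like genes *Chil4* (−4.98) and *Chil3* (−4.89), the lectins *Mgl2* (−4.81), *Mrc1* (−3.77) and *Clec10a* (−3.43), the VEGF receptor gene *Flt1* (−3.74), the ribonuclease gene *Rnase2a* (−3.27), *Atp6v0d2* of the proton pump (−3.5) and the receptor gene *Il27ra* (−1.65).

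The exceptions were chemokines and an enzyme. *Ccl22*, a ligand of CCR4, stood at −2.34 and −1.56 in M1, −6.49 and −5.47 in M2 and at background in Con, and M1 exceeded M2 by 4.03 ± 0.4 (adjusted p = 0.000159). Its neighbour in function, *Ccl17*, also a ligand of CCR4, stood at −3.47 and −3.35 in M1 and −1.09 and −0.44 in M2, and was higher in M2 (difference −2.64 ± 0.37, adjusted p = 0.00078). Both genes rose in both stimulations against Con, but 2 of these rises were smaller. In M2 *Ccl22* rose at least 1.94-fold, by 0.77 in culture 1 and 2.33 in culture 2 (limma, adjusted p = 0.0425). In M1 *Ccl17* rose by 1.33 (limma, adjusted p = 0.0175). *Ccl24*, a ligand of CCR3, stood at 2.55 and 2.63 in M1 and 3.42 and 3.84 in M2, against −2.11 and −1.7 in Con, and the difference between M1 and M2 was not called (−1.04 ± 0.59, adjusted p = 0.162), though the fit to the 6 WT arrays alone called it (adjusted p = 0.00641). The transglutaminase gene *Tgm2* was higher in M1 by 0.84, a call lost without the first M2 array (0.57, adjusted p = 0.0575). Against Con, 9 of the 24 alternative markers rose in M1, 3 fell, and 22 rose in M2. The 9 include *Cdh1*, which was at background in both M1 and Con, so its rise in M1 was not measured.

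**Figure D1:**
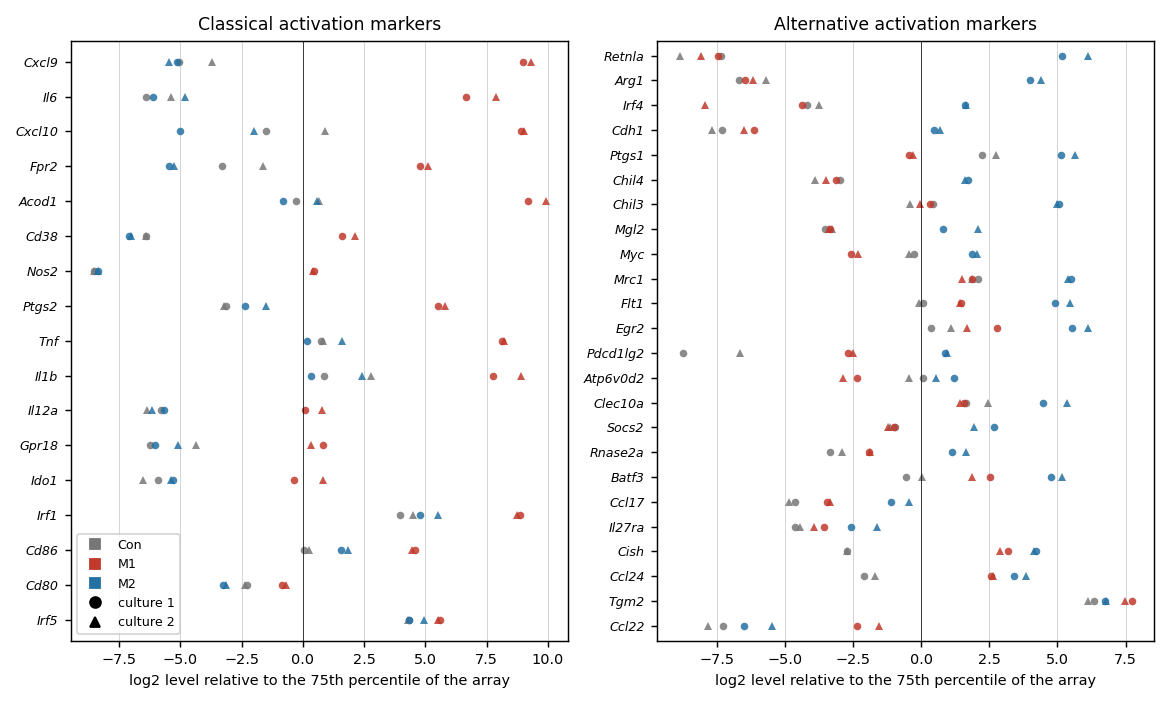
Levels of the classical (left) and alternative (right) activation markers on the 6 WT arrays, as log2 intensity relative to the 75th percentile of the array; each row is a gene, ordered by the difference between M1 and M2, each point an array, colour the stimulus and shape the culture. All 17 classical markers have the red M1 points to the right of the blue M2 points, and among the alternative markers the red points lie to the right for *Ccl22* and *Tgm2*.

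Of the cytokines, 20 of 24 tested were higher in M1, 1 in M2 and 3 were not called (median 4.36). The death ligand gene *Tnfsf10* stood at 1.51 and 2.25 in M1 and at −6.45 and −6.16 in M2, a difference of 8.18, and *Il1a* differed by 7.44 although it also rose in M2 against Con (1.46, adjusted p = 0.012). The growth factor *Igf1* was the cytokine higher in M2: it stood at 6.48 and 6.81 in M2, 5.12 and 4.75 in M1 and 5.87 and 5.95 in Con. The M2 arrays lay above and the M1 arrays below both Con arrays, and the difference was −1.72 ± 0.17 (adjusted p = 0.000136).

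Of the chemokines, 16 of 24 were higher in M1, 5 in M2 and 3 were not called (median 2.19). The chemokine *Ccl5* stood at 9.34 and 9.77 in M1 and 1.62 and 1.72 in M2, and the neutrophil-attracting *Cxcl2*, *Cxcl3* and *Cxcl1* exceeded M2 by 6.32, 6.24 and 5.35. Besides *Ccl17*, the chemokines higher in M2 included *Cxcl12* (−1.92), which fell in M1 alone, *Cxcl14* (−1.16), which fell in both, and *Ccl25* (−0.92), whose call was lost for the mean of the probes of the gene (−0.6, adjusted p = 0.0782). Among 14 chemoattractant receptors, 8 were higher in M1 and 2 in M2 (median 1.36). The receptors for bacterial formyl peptides led: *Fpr2* stood at 4.77 and 5.09 in M1, −5.47 and −5.27 in M2 and −3.3 and −1.62 in Con, and *Fpr1* at 2.79 and 3.64, −4.18 and −4.17, and −2.47 and −0.77. For both genes the order was M1, Con, M2 without overlap. *Ccrl2*, an atypical chemerin receptor, showed the same order, at 6.55 and 6.48 in M1, −0.99 and −0.61 in M2 and 0.45 and 0.67 in Con. The 2 receptors higher in M2 were *Cxcr4*, the receptor of CXCL12, which stood at 1.57 and 1.08 in M2 and −3.38 and −3.95 in M1, and the complement receptor *C3ar1*, at 3.11 and 3.12 in M2 and −0.24 and −0.16 in M1.

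The interferon-induced groups were higher in M1 without exception among the genes tested. All 15 tested IFNγ-induced GTPase genes were higher in M1 (median 7.8), as were 25 of 25 antiviral interferon genes (median 5.16). The guanylate-binding protein *Gbp5* stood at 7.32 and 7.67 in M1, −2.95 and −1.76 in M2 and −2.9 and −1.56 in Con, so M2 and Con overlapped and M1 stood apart. *Gbp2b* was at background in M2 and at least 331-fold higher in M1, and the immunity-related GTPase *Tgtp1* exceeded M2 by 9.46. The GTPase genes had a median of −0.23 in M2 against Con, where 1 rose and 3 fell. The antiviral genes had a median of −0.99 in M2 against Con, where 0 rose and 7 of 25 fell, against 8.21% of all genes. *Ifit1*, which binds foreign RNA caps, stood at 4.8 and 5.47 in M1, −3.51 and −3.02 in M2 and −0.66 and 0.05 in Con. *Rsad2*, the antiviral enzyme viperin, stood at 5.56 and 7.4, −2.81 and −2.01, and −0.48 and 0.92. In both genes the M2 arrays lay below the Con arrays. *Ifit2* exceeded M2 by 8.45, *Cmpk2* by 7.79 and the ubiquitin-like *Isg15* by 7.5, and for the last 2 the fall in M2 against Con missed the threshold (−2.02, adjusted p = 0.0634, and −1.2, adjusted p = 0.0602).

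Among Toll-like receptors and their partners the directions were mixed, with 9 of 20 higher in M1, 6 in M2 and 5 not called (median 0.41), shares close to those of all genes. The co-receptor *Cd14* stood at 7.39 and 7.89 in M1, 3.83 and 4.4 in M2 and 6.23 and 6.48 in Con, so M1 lay above and M2 below Con (difference 3.52 ± 0.12, adjusted p = 4.21e-06). The LPS receptor *Tlr4* itself was higher in M2, at 2.42 and 2.31 against 0.97 and 0.84 in M1 and 2.66 and 2.61 in Con. The signalling adaptor *Myd88* (3.0), *Tlr6* (2.9) and *Tlr1* (2.27), which pair with TLR2, and the inhibitory kinase *Irak3* (2.99) were higher in M1, and the RNA sensor *Tlr8* (−2.41) and the kinase *Irak4* (−0.65) were higher in M2. Of the NF-κB subunits and inhibitors, 18 of 20 were higher in M1 and 0 in M2 (median 2.68). The adaptor *Traf1* stood at 6.73 and 7.06 in M1 and −1.13 and 0.32 in M2, a difference of 7.3. The feedback inhibitors *Nfkbie* (4.58), *Tnfaip3* (4.15) and *Tnip3* (3.46) and the ubiquitin ligase *Birc3* (3.46) followed.

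Of 30 cytokine receptor, JAK-STAT and SOCS genes, 18 were higher in M1, 8 in M2 and 4 were not called (median 1.27), and members of a family often parted. Of the feedback inhibitors of cytokine signalling, *Socs3* stood at 8.12 and 8.34 in M1, 1.9 and 3.42 in M2 and 1.29 and 2.1 in Con. *Socs2* stood at −0.99 and −1.21 in M1, 2.68 and 1.93 in M2 and −0.94 and −1.14 in Con. *Socs1* stood at 7.75 and 7.91 in M1 and 5.4 and 5.13 in M2, both above −0.92 and −0.91 in Con. Thus *Socs3* was higher in M1 by 5.57 ± 0.36 (adjusted p = 2.62e-05), *Socs2* was higher in M2 by the difference −3.4 ± 0.17 (adjusted p = 1.11e-05), and *Socs1* rose in both and was higher in M1 by 2.56 ± 0.19 (adjusted p = 4.77e-05). *Cish*, of the same family, rose in both and was higher in M2 (−1.16 ± 0.1, adjusted p = 8.84e-05). *Stat4* (5.93), *Stat2* (3.55) and *Stat3* (3.33) were higher in M1. The receptors divided: *Il13ra1*, a subunit of the type II IL-4 receptor, was higher in M1 (3.75), and the decoy receptor *Il13ra2* (at least 1.8-fold), *Il1r1* (−3.1) and *Il6ra* (−2.7) were higher in M2.

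The transcription factors associated with polarization were split, with 17 of 35 higher in M1, 14 in M2 and 4 not called (median 0.25, a value whose sign changed under quantile normalization and without the second M1 array). *Batf2* stood at 6.79 and 6.76 in M1, −0.22 and 0.31 in M2 and −0.58 and 0.06 in Con, a difference of 6.73. *Batf3* rose in both and was higher in M2, at 4.78 and 5.16 against 2.53 and 1.87 in M1 and −0.57 and 0.05 in Con. *Egr2*, a factor induced by IL-4, stood at 5.55 and 6.11 in M2, 2.79 and 1.69 in M1 and 0.37 and 1.11 in Con (difference −3.59 ± 0.48, adjusted p = 0.000616). 2 other factors well expressed in Con were lower in M1 while M2 was not called against Con. *Cebpa* stood at −1.17 and −1.81 in M1 and 4.17 and 3.83 in M2, and the fatty acid receptor *Pparg* at −1.58 and −1.6 against 3.99 and 3.71.

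**Figure D2:**
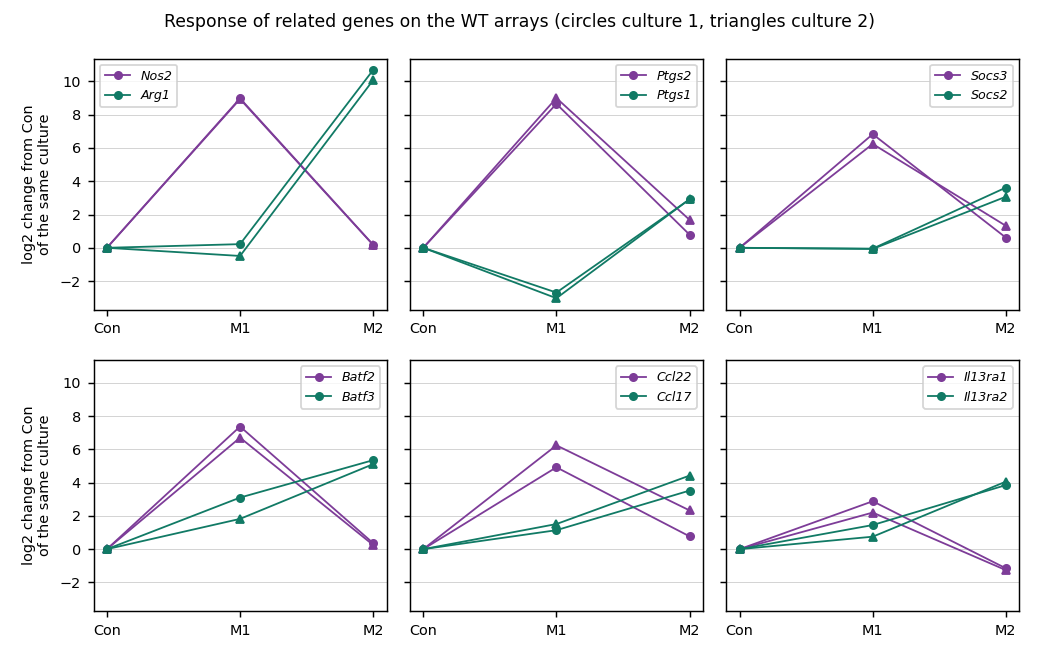
Change from the Con array of the same culture, on the log2 scale, for 6 pairs of related genes in the 3 WT groups; lines join the arrays of a culture and do not stand for a course in time, and the pairs were chosen after their values were seen. *Nos2*, *Ptgs2*, *Socs3* and *Batf2* rise mainly in M1 and *Arg1*, *Ptgs1*, *Socs2* and *Batf3* mainly in M2, with *Ptgs1* below 0 in M1, while *Ccl22* and *Il13ra1* are highest in M1 and *Ccl17* and *Il13ra2* in M2.

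Arginine is the substrate of both nitric oxide synthase and arginase. Of 20 arginine, nitric oxide and polyamine genes, 10 were higher in M1, 7 in M2 and 3 were not called (median 0.3). Beside *Nos2*, M1 cells had more *Gch1*, which makes the cofactor of nitric oxide synthase, at 4.4 on both M1 arrays against −0.03 and 0.45 in M2, and more *Ass1*, which regenerates arginine from citrulline, at 4.33 and 4.39 against 0.06 and 0.34. Beside *Arg1*, M2 cells had more *Srm* (−1.9), which makes spermidine, *Sat1* (−1.53), which acetylates polyamines, and *Gatm* (−1.52), which uses arginine to make the precursor of creatine. Against Con, *Sat1* fell in M1 alone and *Gatm* rose in both stimulations. The arginine transporter *Slc7a2* rose in both, to 2.29 and 2.86 in M1 and 0.56 and 0.81 in M2 from −3.91 and −4.02 in Con. M1 exceeded M2 by 1.89 ± 0.21 (adjusted p = 0.000239).

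The cyclooxygenases differed between M1 and M2 in opposite directions, while on the M2 arrays both lay above Con. The inducible *Ptgs2* stood at 5.5 and 5.8 in M1 and −2.36 and −1.52 in M2, with Con at −3.15 and −3.2. The constitutive *Ptgs1* stood at −0.46 and −0.3 in M1 and 5.14 and 5.65 in M2, with Con between them at 2.23 and 2.73, and the difference was −5.77 ± 0.31 (adjusted p = 1.43e-05). *Ptges*, the inducible prostaglandin E synthase, exceeded M2 by 4.63, the prostaglandin E receptor *Ptger4* by 3.53 and the phospholipase *Pla2g7* by 3.28. Of the 17 prostanoid and leukotriene genes as a whole, 6 were higher in M1 and 10 in M2 (median −1.01).

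Glycolysis and HIF-1 genes were higher in M1 or not called: 18 of 24 were higher in M1, 0 in M2 and 6 were not called (median 1.24). *Pfkp*, the platelet isoform of phosphofructokinase, stood at 5.44 and 5.52 in M1 and 1.96 and 1.9 in M2, with Con at 1.01 and 0.95. The sugar transporter *Slc2a6* (3.53), the hexokinase *Hk3* (3.44), the regulator *Hif1a* (2.72), *Pfkfb3* (2.56) and the lactate exporter *Slc16a3* (2.47) were also higher in M1. Of 22 TCA cycle and itaconate genes, 3 were higher in M1 and 10 in M2 (median −0.27). *Acod1*, which makes itaconate from cis-aconitate, stood at 9.19 and 9.9 in M1 against −0.8 and 0.59 in M2. *Idh1* stood at −2.1 and −1.89 in M1 against 1.32 and 1.23 in M2, and *Idh2* (−2.19), *Suclg2* (−2.02) and *Idh3g* (−1.44) were higher in M2 too. Fatty acid genes were higher in M2 in 11 of 21 cases and in M1 in 1 (median −0.49). The lipid chaperone *Fabp4* stood at 2.48 and 1.68 in M1, 4.52 and 4.3 in M2 and 5.41 and 5.12 in Con, and the oxidation enzymes *Acadm* (−1.82), *Acaa2* (−1.75) and *Acads* (−1.73) fell in M1 alone. The respiratory chain (9 of 28 higher in M1 and 12 in M2, median −0.04) and the cholesterol genes (7 of 25 higher in M1 and 9 in M2, median −0.02) showed no common direction, although 21 of the 28 respiratory genes were higher in M2 after quantile normalization. Within the latter, *Ch25h*, which makes 25-hydroxycholesterol, was higher in M1 by 5.0 and rose in both, and *Dhcr7*, of the last steps of synthesis, stood at −1.25 and −1.41 in M1 and 2.44 and 2.62 in M2.

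Antigen presentation genes were mostly higher in M1. Of the class I loading and immunoproteasome genes 16 of 17 were higher in M1 and 0 in M2 (median 2.06). The coactivator *Nlrc5* stood at 1.04 and 1.57 in M1 and −4.13 and −4.19 in M2, the peptide transporter *Tap1* exceeded M2 by 5.26, and the immunoproteasome subunits *Psmb9* and *Psmb8* by 3.42 and 2.96. Of the class II genes 10 of 11 were higher in M1 (median 1.66). *H2-Ab1* stood at 7.82 and 8.0 in M1, 5.19 and 5.77 in M2 and 5.04 and 5.55 in Con, and the invariant chain *Cd74* exceeded M2 by 1.66. *H2-DMb2*, a chain of the peptide exchange factor, was the exception: it stood at −4.87 and −4.97 in M1, −3.67 and −3.74 in M2 and −5.75 and −6.28 in Con, so it rose in both and more in M2, while its relative *H2-DMb1* was higher in M1 by 1.76.

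Of 16 costimulatory and checkpoint ligands, 12 were higher in M1 and 3 in M2 (median 3.15). *Cd40*, which engages T cell help, stood at 8.04 and 8.17 in M1, 1.44 and 2.11 in M2 and −2.25 and −1.5 in Con, and *Icosl* (5.54), *Icam1* (4.63), *Slamf7* (4.37) and *Tnfsf9* (4.13) were higher in M1. *Pdcd1lg2*, the PD-1 ligand PD-L2, stood at −2.7 and −2.49 in M1, 0.89 and 0.94 in M2 and −8.74 and −6.65 in Con. It rose in both and was higher in M2 (−3.51 ± 0.52, adjusted p = 0.000946). *Havcr2* (−2.16) and *Cd276* (at least 3.13-fold) were also higher in M2, and both fell in M1 against Con. Lectin, scavenger and Fc receptors divided evenly, with 11 of 25 higher in M1 and 12 in M2 (median −0.38). The lectin *Clec4e* (Mincle), which senses mycobacterial glycolipid, stood at 7.98 and 8.37 in M1 against −0.18 and 1.57 in M2, and the scavenger receptor *Marco* at 7.31 and 8.36 against 0.77 and 0.75. The Fc receptor *Fcgr4* (4.92) and the lectin *Clec5a* (4.06) were higher in M1, and *Mgl2*, *Mrc1* and the inhibitory receptor *Cd300a* (−3.81) were higher in M2.

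In the remaining lists, inflammasome and cell death genes were higher in M1 in 17 of 19 cases and in M2 in 1 (median 2.32). The bacterial wall sensors *Nod2* and *Nod1* exceeded M2 by 5.88 and 5.27, the necroptosis effector *Mlkl* by 4.7, *Mefv* by 4.62, *Fas* by 4.2 and *Nlrp3* by 4.11. Cell cycle genes were higher in M2 in 16 of 26 cases and in M1 in 7 (median −1.35). The replication helicase subunits *Mcm2* and *Mcm6* stood at −3.01 and −2.99, and 2.3 and 2.11, in M1 and at 0.64 and 0.02, and 4.63 and 4.36, in M2, and both fell in M1. The cyclin *Ccnd2* stood at 6.15 and 6.52 in M1 against 0.95 and 1.19 in M2, and the cell cycle inhibitor *Cdkn1a* exceeded M2 by 3.34. The proliferation marker *Mki67* was higher in M1 by 1.89. Nucleolar genes of ribosome assembly were higher in M2 in 11 of 19 cases and in M1 in 2 (median −0.5), and 16 of the 19 rose in M2 against Con. Of them *Dkc1* differed by −1.7, *Ppan* by −1.31 and *Nop58* by −1.06. Of 23 matrix remodelling genes, 8 were higher in M1, 2 in M2 and 13 were not called (median 0.4). The collagenase *Mmp13* stood at 6.06 and 6.99 in M1 and −0.27 and −0.11 in M2, and *Mmp14* and *Vcan* exceeded M2 by 4.11 and 4.03, while the inhibitor *Timp2* was higher in M2 (−1.72). Lysosome genes were higher in M2 in 11 of 26 cases and in M1 in 7 (median −0.26), or in 22 and 0 cases after quantile normalization, with the cholesterol exporter *Npc1* at −2.27 and the glucuronidase *Gusb* at −1.2.

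**Figure D3:**
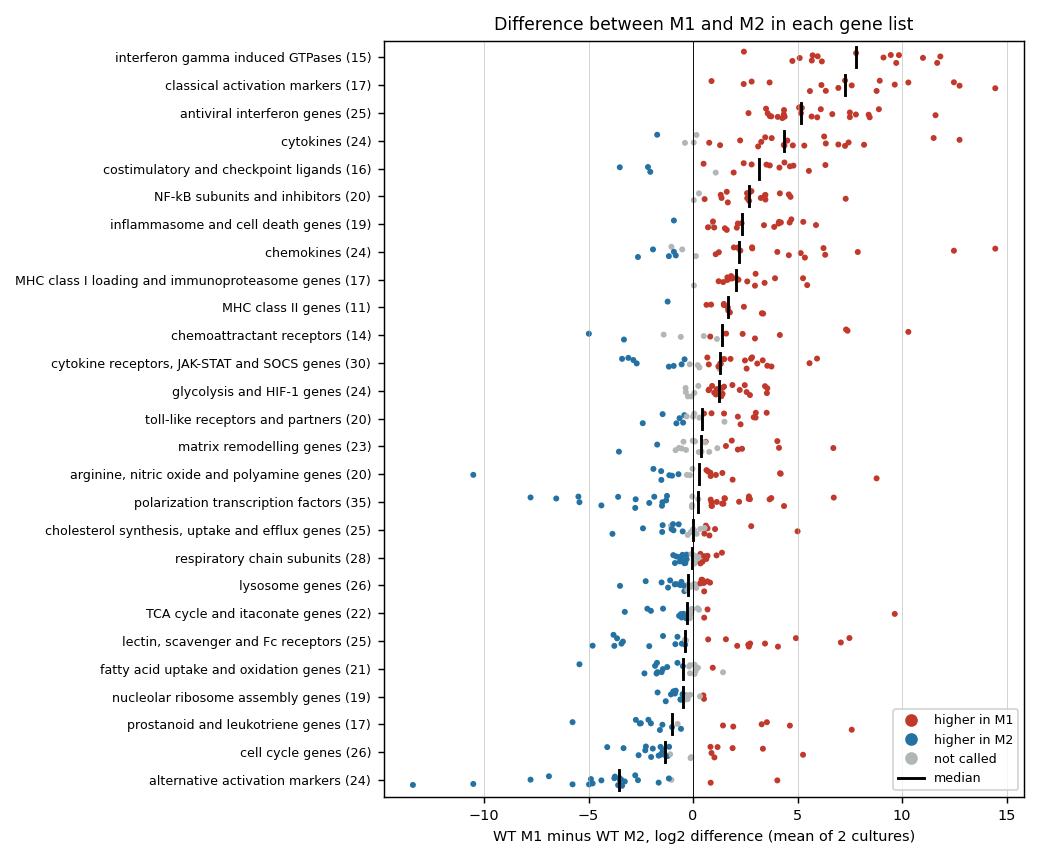
Difference between WT M1 and WT M2 on the log2 scale for each tested member of 27 gene lists, ordered by the list median (black bar); the number tested stands beside each list, and colour gives the limma call. The GTPase genes lie wholly to the right with a median of 7.8, the alternative markers mostly to the left with a median of −3.55, and the respiratory chain near 0.

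Read against Con, 98 genes rose in M1 and fell in M2 and 99 did the reverse, with adjusted p under 0.05 and more than 2-fold in each culture in both comparisons. Both responses are measured from the same Con arrays, so these counts are a description, and the 197 genes became 100, 90, 111 and 103 without the first or second Con array or the first or second M2 array. The 98 genes had a median of 2.52 in M1 and −1.59 in M2 against Con. They held *Cxcl10*, at 8.92 and 9.03 in M1, −5.0 and −2.0 in M2 and −1.5 and 0.89 in Con, and *Ifit1*, *Ifit3*, *Ifit3b*, *Oasl1*, *Rsad2*, *Fpr1*, *Fpr2* and *Cd14*. *Klra2*, a lectin-like receptor, stood at −2.9 and −2.51 in M1, −5.8 and −5.13 in Con and at background in M2. *Mylip*, which degrades the LDL receptor, stood at 5.39 and 4.89 in M1, 2.62 and 2.1 in M2 and 3.83 and 3.61 in Con. When each of the 6 WT arrays was left out in turn, *Klra2*, *Cd14* and *Mylip* met the rule in 6 of 6 cases, *Ifit1*, *Ifit3*, *Fpr2* and *Oasl1* in 4, *Rsad2* and *Clec4e* in 3, *Cxcl10* in 2 and *Il13ra1* in 0. In these fits the comparisons that use the missing array were checked for fold in the remaining culture alone. The rule was therefore looser, and a gene of the class could leave it through the adjusted p alone. Of these genes, *Cd14* and *Mylip* left the class after quantile normalization, *Klra2*, *Cxcl10*, *Fpr2*, *Oasl1* and *Il13ra1* under the normexp background correction, and *Cxcl10*, *Ifit1*, *Ifit3*, *Rsad2*, *Fpr2*, *Clec4e* and *Il13ra1* without the replicate block. *Fpr1* met the rule in 3 of 6 cases and left the class under the latter 2 alternatives too.

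The 99 genes of the reverse pattern had a median of −1.9 in M1 and 1.6 in M2. *Myc*, which drives growth, stood at −2.57 and −2.32 in M1, 1.86 and 2.04 in M2 and −0.27 and −0.46 in Con. *Matk*, an inhibitory tyrosine kinase, stood at −2.16 and −2.81, 3.39 and 3.28, and 0.38 and 0.24, and *Tbc1d16*, a Rab regulator, at −3.04 and −3.34, 2.83 and 2.4, and 0.21 and 0.13. In each of the 3 genes, and in *Ptgs1*, the groups followed the order M2, Con, M1 without overlap. *Tmem26* rose to 1.52 and 0.76 in M2 from −4.7 and −4.28 in Con and was at background in M1. *Ptgs1*, *Myc*, *Matk*, *Tbc1d16* and *Tmem26* met the same looser rule in 6 of 6 cases when an array was left out, but *Tmem26* was counted under M2 alone with the normexp background correction.

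**Figure D4:**
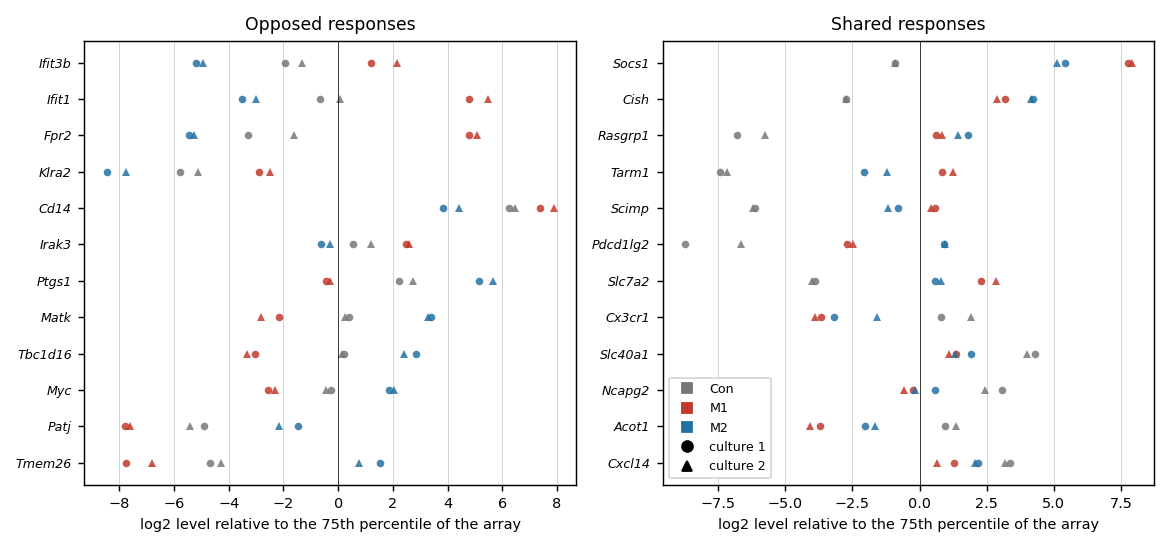
Levels on the 6 WT arrays of 12 genes with opposed responses (left) and 12 with shared responses (right), as log2 intensity relative to the 75th percentile of the array; each point is an array. On the left the grey Con points lie between red M1 and blue M2 points, as for *Ptgs1* with Con at 2.23 and 2.73, and on the right both stimuli lie on the same side of Con.

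Shared responses, measured from the same Con arrays as well, held 242 genes that rose and 210 that fell in both. Among the 242, 16 were at background on both M1 arrays and 5 on both M2 arrays, so those rises were not measured above background. Probes at background stood at a median of −7.43 and −7.95 on the M1 arrays and of −8.74 and −8.7 on the Con arrays. Of the 242, 124 were higher in M1 than in M2, 36 were higher in M2 and 82 were not called between them. Ordered by the smaller of the 2 responses, the first were *Rasgrp1*, *Socs1* and *Cish*. *Rasgrp1*, an activator of Ras, stood at 0.61 and 0.83 in M1, 1.81 and 1.44 in M2 and −6.8 and −5.77 in Con, without a call between the stimuli (−0.91 ± 0.35, adjusted p = 0.0586). By limma it was called with each array less its median (adjusted p = 0.0458) and under the normexp background correction (adjusted p = 0.0459). It was also called with genes above background on all 6 WT arrays (adjusted p = 0.045) and with a trended variance prior (adjusted p = 0.0429). The difference was −1.32 without the second M2 array. *Tarm1*, a receptor of myeloid cells, was at background in Con and rose to 0.83 and 1.23 in M1 and −2.06 and −1.21 in M2. Of the 210 that fell, 89 were not called between the stimuli, 4 were higher in M1 and the others were lower in M1. The fractalkine receptor *Cx3cr1* stood at −3.67 and −3.9 in M1, −3.18 and −1.57 in M2 and 0.81 and 1.91 in Con. The iron exporter *Slc40a1* stood at 1.35 and 1.09 in M1 and 1.9 and 1.31 in M2, against 4.31 and 3.98 in Con. For both genes the difference between the stimuli was not called (adjusted p = 0.0541 and 0.266). For *Cx3cr1* limma called it with dim signals raised to a floor (adjusted p = 0.0467) and with the mouse as a block (adjusted p = 0.0312). The call also came with genes above background on all 6 WT arrays (adjusted p = 0.0414) and with a trended variance prior (adjusted p = 0.0379). Without the first M1 array the *Cx3cr1* difference was −2.36. *Acot1*, an acyl-CoA thioesterase, fell by 5.04 in M1 and by 3.0 in M2 on the log2 scale, and *Ncapg2*, a condensin subunit, fell by 3.17 and by 2.54.

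Genes that responded to M1 while M2 stayed within 0.5 of Con in each culture, uncalled, numbered 1368 up and 1392 down, and those that responded in this way to M2 numbered 67 up and 33 down. A gene counted here also differed between M1 and M2 by the same rule. The 100 genes of M2 alone became more without either M1 array, and the 452 shared genes became fewer without the second M2 array. Such fits check the fold and 0.5 limits in the remaining culture alone. The change of the array and the looser rule cannot be told apart in these counts. Up in M1 alone were *Nos2*, *Gbp2*, *Gbp5* and *Cfb*, the complement factor B gene, which stood at 6.77 and 6.89 in M1, −2.68 and −3.13 in M2 and −2.45 and −2.77 in Con. Down in M1 alone were *Rasgrp3*, another activator of Ras, at −4.68 and −5.09 in M1, 2.09 and 1.78 in M2 and 2.1 and 2.06 in Con, *Tmem37* (−6.41 in M1 against Con), the ceramide kinase *Cerk* (−6.28), *Slc26a11* (−6.03), the lysosomal sulfatase *Sgsh* (−5.89) and *Cd28*, which was at background in M1. *Rasgrp1* and *Rasgrp3* thus parted in M1, the one rising and the other falling. *Nos2*, *Cfb* and *Slc26a11* left their class under the normexp background correction, *Cd28* after quantile normalization, and *Cerk* and *Sgsh* under both.

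Up in M2 alone were *Arg1*, *Chil3*, *Chil4*, *Mgl2* and the water and glycerol channel *Aqp3*, which stood at −0.63 and 0.29 in M2, −5.76 and −5.61 in M1 and −5.67 and −5.71 in Con. *Chil3* stood at 5.07 and 4.98 in M2, 0.31 and −0.04 in M1 and 0.42 and −0.42 in Con, so M1 and Con overlapped. Down in M2 alone were *Clec4d*, a partner of Mincle, at 4.25 and 4.58 in M2, 7.03 and 7.15 in M1 and 6.81 and 6.99 in Con, the protease inhibitor *Serpinb8* (−2.22 against Con) and *Pid1* (−2.02). The lectins *Clec4d* and *Clec4e* therefore both fell in M2. In M1 *Clec4e* rose (5.39, adjusted p = 3.28e-05) and *Clec4d* was not called (0.19, adjusted p = 0.404), and the difference between the 2 genes was not tested. *Clec4d* and *Pid1* left their class after quantile normalization, *Chil4* and *Aqp3* under the normexp background correction, and *Arg1* under both.

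**Figure D5:**
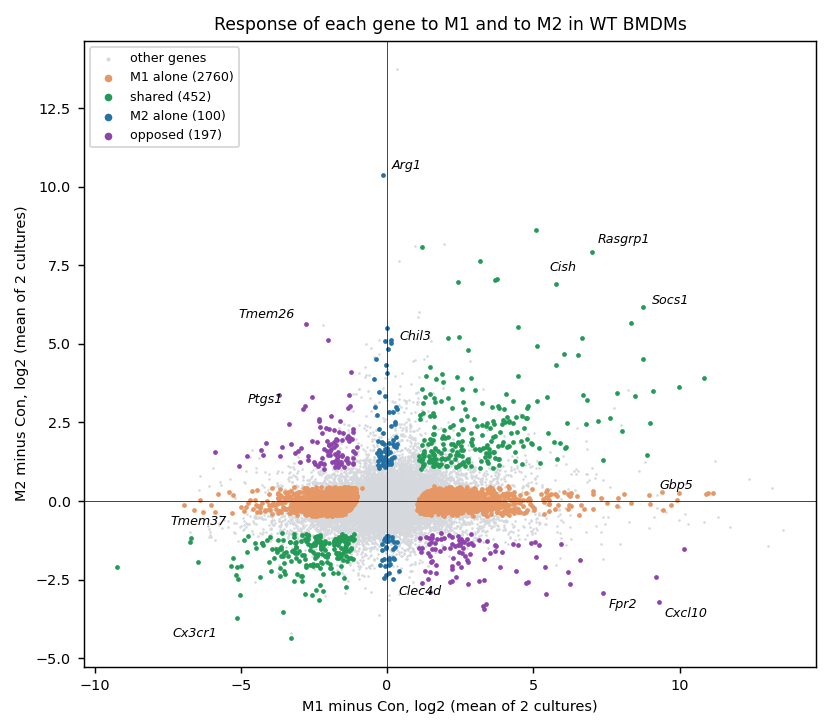
Change of each tested gene from Con, on the log2 scale and as the mean of 2 cultures, in M1 (horizontal) and M2 (vertical), with the classes in colour and their sizes in the key; both axes use the same Con arrays. M1 alone holds 2760 genes, M2 alone 100 and the opposed class 197, and *Socs1* and *Rasgrp1* lie far out among the 452 shared genes.

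The direction and fold rules of the classes used the WT arrays, while their adjusted p drew on the spread over all 12 arrays, KpCKO included, so the counts here are a description. A fit to the 6 WT arrays gave 181 opposed and 403 shared genes. On the KpCKO arrays, 98 of the 98 genes up in M1 and down in M2, and 99 of the 99 with the reverse pattern, had the same direction between M1 and M2 in both cultures, where 40.2% and 43.2% of all genes did. The full pattern of rise and fall by more than 2-fold in each culture was met by 27 of the 98 (27.6%, against 0.259% of all genes) and by 42 of the 99 (42.4%, against 0.295%), and by 126 of the 242 shared rises (52.1%, against 0.841%) and 84 of the 210 shared falls (40%, against 0.564%). Of genes that rose in M1 alone it was met by 585 of 1368 (42.8%, against 3.83%), and of those that fell in M1 alone by 671 of 1392 (48.2%, against 4.44%). Of genes that rose in M2 alone it was met by 22 of 67 (32.8%, against 0.358%), and of those that fell in M2 alone by 6 of 33 (18.2%, against 0.157%). WT and KpCKO arrays of a stimulus shared a slide, so the slide is not independent between the genotypes.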

How the data were processed

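Cy3-labelled RNA of 12 samples was measured on Agilent arrays in 1 colour. The authors extracted and deposited, with Feature Extraction 10.7.3.1 per the file headers, the background-subtracted intensity of 43379 spots per array, not scaled between arrays, with flags for outlier, saturated and dim spots. The authors also deposited log2 values, normalized with GeneSpring per the study's methods, which match a 75th-percentile scaling of the log2 intensities, centred on each probe, with slopes between 0.999623 and 1.00036 over 40749 probes.

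Here spots marked as outliers were removed, repeated spots averaged per probe, and log2 intensities set relative to the 75th percentile of the array. Of 41174 probes, 26690 were matched by accession to 18217 symbols; of several probes of a gene, the one with the highest mean was used. A gene was kept where some group had it well above background on both its arrays (22358 genes, 22347 of them tested). limma 3.58.1 (R 4.3.3) was fitted to all 12 arrays with 6 groups and the culture as a block (5 residual and 1.92 prior degrees of freedom), Benjamini-Hochberg adjusted over all genes. A fold of at least N sets the mean of the bright group against, on each array of the dim group, the higher of the signal of the probe and the lowest signal well above background. The fit was tested on simulated data. With 2 arrays a group, the smallest p of a two-sided exact permutation test is 0.333 and no such test was run; the number of arrays limits the precision. Across genes the arrays of a group correlated at 0.993 (Con), 0.985 (M1) and 0.992 (M2).

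The culture pairs the arrays, per the design text of the series, and the deviations of arrays of the same culture correlated between 0.162 and 0.597 in 15 pairs of groups (0.189 for WT M1 and M2). The gene named for each result follows a rule: all members of the 2 marker lists, 6 members with the largest difference in each other list with up to 4 called against its median, the 10 largest differences each way, and 6 genes per class. The members and the lists were chosen with earlier results of these data known. A few genes that the rule names are not reported here. Promoter sequences came from RefSeq and motif letters were searched on both strands. Python 3.11.15, pandas 2.3.3 and matplotlib 3.10.9 made tables and plots. The alternatives were other normalizations, background corrections, filters, probe summaries and models, and leaving out each WT array in turn.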

Additional observations from a re-analysis of the deposited data

Results flagged for a closer look

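2 results differed between the genotypes by limma's test of the difference itself. *Mmp13*, a collagenase, was higher in M1 than in M2 by 6.71 in WT and by 2.54 in KpCKO, a difference between the genotypes of −4.17 (adjusted p = 0.0475). *Slamf7*, a receptor of immune cells, was higher in M1 by 4.37 in WT and by 2.86 in KpCKO, a difference of −1.51 (adjusted p = 0.0475). Each was called in 1 of 12 fits that left out an array, with adjusted p between 0.0059 and 0.205 for *Mmp13* and between 0.0185 and 0.171 for *Slamf7*. Over all genes 22 passed this test, and 3892 had an unadjusted p under 0.05. The 22 became 567 without the first WT M1 array, 0 without either WT Con array or either KpCKO M2 array, between 1 and 7 without 1 of the other 7 arrays, 0 under the normexp correction, 5 for the mean of probes, 10 without the replicate block, 46 after quantile normalization and 48 with dim signals raised to a floor.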

How the results depend on the processing

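Of 190 genes named with a difference between M1 and M2, 178 kept their direction and their side of the threshold under each of the alternatives that gave a value for them, up to 18 for a gene, and none turned its direction. The call for *Irf5* was lost after quantile normalization (0.26), that for *Tgm2* after quantile normalization (0.06) and without the replicate block (adjusted p = 0.0506), that for *Ccl25* for the mean of probes (−0.6), and those for *Cd276*, *H2-DMb2*, *Il13ra2*, *Irak4* and *Klra2* under the normexp correction. Under normexp, 4162 genes were higher in M1, 1621 responded to M1 alone, 73 were opposed and 220 shared. With more than 2-fold in each culture required, 3493 were higher in M1 and 3198 in M2. An unpaired t-test after Benjamini-Hochberg gave 1480 higher in M1, 1205 in M2, 771 to M1 alone, and 0 each to M2 alone, opposed and shared. At an unadjusted p under 0.05 the last were 86, 163 and 341. The study's methods name this test for BMDM data and name no test for the arrays. Without the replicate block, 125 genes were opposed, and no other class or direction count moved by more than 1.5 times. Class counts from fits without an array follow a looser rule, with the limits checked in the remaining culture alone. Leaving out 1 WT array gave 90 to 232 opposed, 285 to 499 shared and 107 to 214 genes of M2 alone. The median M1 minus M2 difference over all genes was 0.09, and −0.1 after quantile normalization, where 6399 genes were higher in M1 and 8006 in M2, so changes there are relative to that shift. The median of the polarization transcription factors was −0.09 after quantile normalization, −0.04 for the mean of probes and between −0.08 and 0.63 without 1 array. After quantile normalization 16 TCA cycle genes were higher in M2, and 4 cholesterol genes were higher in M1. The cause of these changes was not tested. The slide could not be fitted as a block, since each slide holds 1 stimulus. The dimmer M1 arrays limit what can be said of genes near background: 126 genes called higher in M1 were at background on both M1 arrays, and 31 called higher in M2 were at background on both M2 arrays.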
